A study of Mus musculus with 4 samples.

Results

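Genes of early secretory transport were followed in mouse blastocysts whose culture medium held either α-ketoglutarate, here α-KG, or 2-hydroxyglutarate, here 2-HG. The members were chosen by name and were all found, 40 of the 53715 genes in the table, in the 5 role groups of COPII coat, cargo export, COPI coat, TRAPP tether and Golgi PI4P binders. All libraries came from C57BL/6 embryos that were collected as zygotes from the oviduct and cultured in KSOM medium, and the libraries were made from pre-amplified cDNA. One library was treated from the pronuclear stage with 0.15 mM α-KG and is set against its own negative control, here the α-KG control. Another was treated with 0.3 mM 2-HG and is set against the 2-HG control. The labels give no number of embryos per library, no enantiomer of 2-HG and no description of what the controls received. Each of the 4 groups holds 1 library, so no test was run, no error can be given, and every difference below compares 1 library with 1 other.

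Newly made secretory and membrane proteins leave the endoplasmic reticulum (ER) in COPII-coated vesicles, and COPI-coated vesicles carry material back from the Golgi and between its cisternae. TRAPP complexes tether arriving vesicles and activate Rab GTPases on the Golgi side. In the blastocyst this route supplies the polarised trophectoderm with membrane and junction proteins and the primitive endoderm with basement membrane proteins.

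Levels are in TPM, a length-scaled abundance that allows an approximate comparison between genes. Any bias between genes from pre-amplification of the cDNA was not tested. A difference is one of log2(TPM + 1) from library to library, given where a gene reached 5 TPM in either, and the 2-fold rule is a difference of at least 1 in either direction. Blastocyst markers were present: Cdx2, the trophectoderm factor, was at 13.5 to 17.3 TPM, Nanog of the epiblast at 44.2 to 75.2 TPM and Gata6 of the primitive endoderm at 161 to 212 TPM, while Gata4 and Sox17, later markers of the primitive endoderm, were under 2 TPM. Sox7 was at 0.15 to 1.25 TPM and Pdgfra at 4.13 to 7.84 TPM, so of the listed primitive endoderm markers Gata6 alone was high. Not all markers were steady. Gata2 of the trophectoderm had differences of -1.90 with 2-HG and 1.71 between the controls, and Elf5 of -1.85 with α-KG and -2.17 between the controls. Sox2 of the epiblast differed by -1.55 between the controls, where all 5 epiblast markers were below 0. The part of cell makeup in the levels below was not tested. Of 6 cumulus and granulosa markers, Ptx3, Has2, Fshr and Inhba were listed at 0 in all 4 libraries, and Amhr2 was at 3.68 to 8.45 TPM. The 3 oviduct markers summed to at most 1.70 TPM and the 4 blood markers to at most 3.13 TPM. In bulk libraries, fewer cells of a type and less RNA per cell cannot be told apart.

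**Figure D1:**
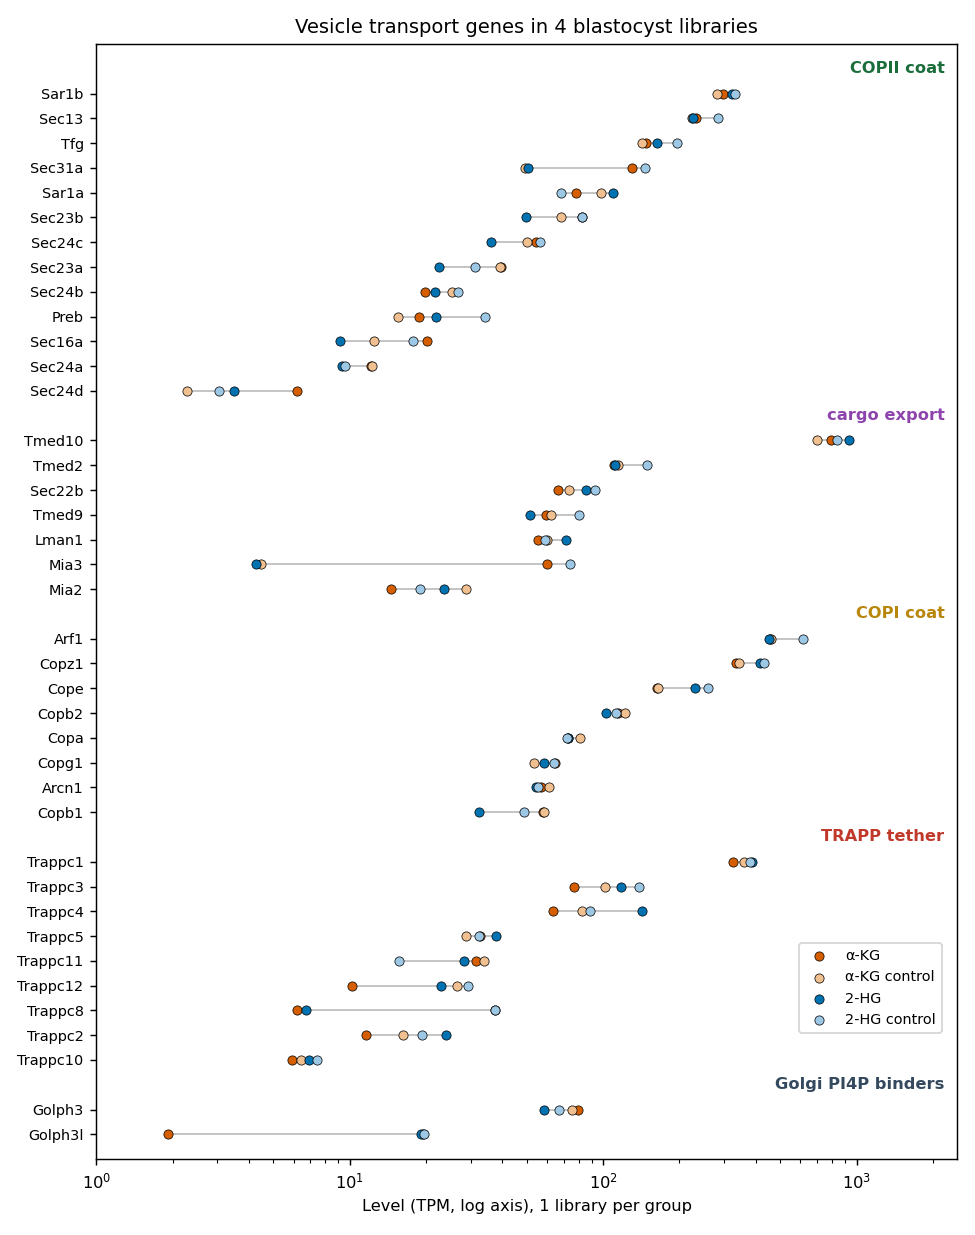
Level of each vesicle transport gene in the 4 libraries (TPM, log axis), by role and ordered by mean level, with 1 point per library. Most genes span a narrow range, while Mia3, Sec31a, Trappc8 and Golph3l fall into separate high and low libraries. Arf4, listed at 0 in all 4 libraries, cannot be drawn.

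Without regard to level, the members varied about as much as other genes, and a few stood far apart. Among abundant genes, the share with a 2-fold span was larger in members than in all genes, but this depended on the cut for abundance. Across the 4 libraries, the median member spanned 0.63 on the log2 scale, and the median of all 10420 genes with at least 5 TPM in any library also spanned 0.63. A span of at least 2-fold was seen in 10 of 39 members (25.6%), against 23.8% of all genes. Among genes that averaged at least 20 TPM, which vary less, it was seen in 7 of 33 members (21.2%), against 10.2% of all such genes. The median spans there were 0.47 for members and 0.49 for all genes. That average was taken over the same libraries as the span, so a gene can pass the cut through its high libraries alone. Trappc8, Trappc12 and Preb, which are among the 7, averaged 21.9, 22.2 and 22.5 TPM, just above the cut. The 2-HG control was the highest library for 18 of 39 members (46.2%) and for 32.3% of all genes.

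With α-KG, 3 members were at least 2-fold higher than in the α-KG control (Mia3, Sec31a and Sec24d) and 3 were at least 2-fold lower (Golph3l, Trappc8 and Trappc12), which is 15.4% of 39 measured. Over all 9878 genes of that comparison, 4.21% were higher and 3.1% lower, 7.31% in all. With 2-HG, none of 38 measured members was at least 2-fold higher than in the 2-HG control and 3, or 7.89%, were lower (Mia3, Sec31a and Trappc8), where 2.36% of all 9834 genes were higher and 5.65% lower, 8.01% in all. The labels name no difference in treatment between the controls. Relative to the α-KG control, the 2-HG control had Mia3, Sec31a and Preb at least 2-fold higher and Trappc11 lower, 4 of 38 measured members, where 5.99% of all 9927 genes were higher and 2.87% lower, 8.86% in all. Median differences of the members were -0.04 with α-KG, -0.15 with 2-HG and 0.18 between the controls, where those of all genes were 0.05, -0.12 and 0.09. Below 0 were 24 of 39 members (61.5%) with α-KG and 28 of 38 (73.7%) with 2-HG, against 44.2% and 62.4% of all genes. Against the control of the other pair, the medians with α-KG were -0.22 for members and -0.04 for all genes. Those with 2-HG were -0.02 and -0.04. The first and the third comparison share the α-KG control, and the second and the third share the 2-HG control.

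**Figure D2:**
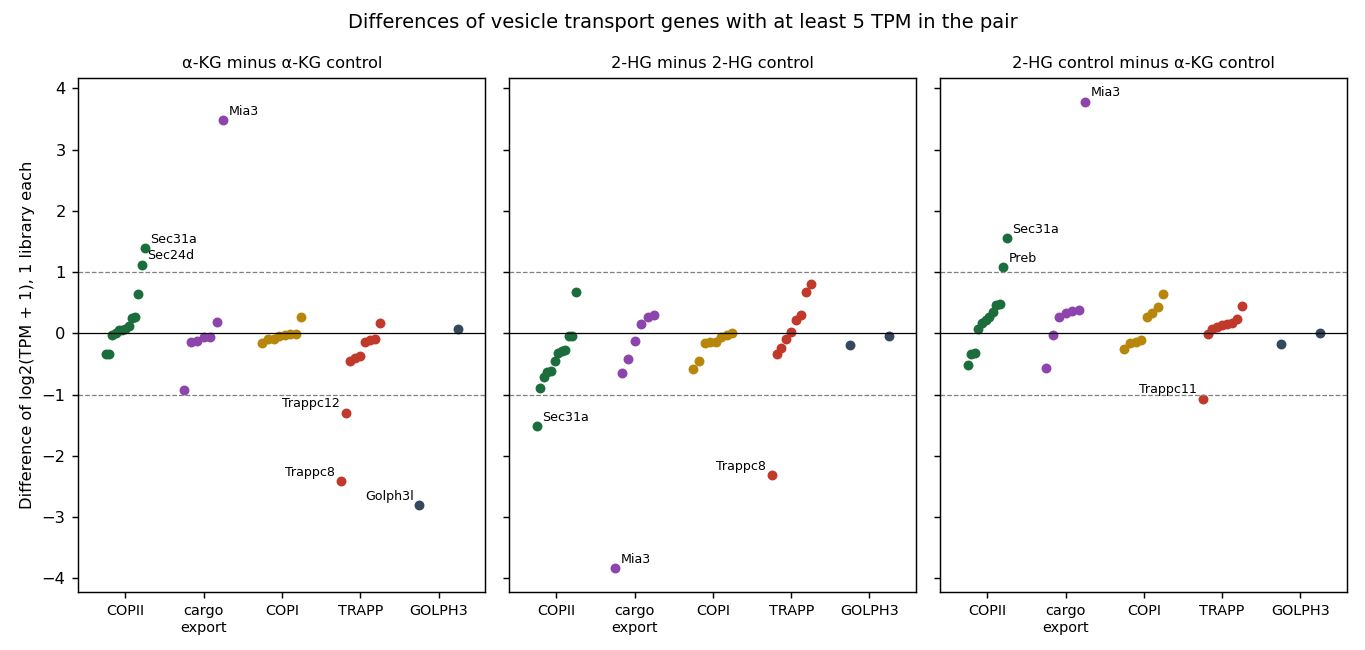
Difference of log2(TPM + 1) of each measured member in the 3 comparisons, by role, with 1 point per gene and dashed lines at the 2-fold rule. Mia3 and Sec31a lie above the rule with α-KG and between the controls and below it with 2-HG, and Trappc8 lies below it with either compound.

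The outer COPII cage is built from SEC13 and SEC31, and its members behaved differently. Sec31a was at 130 TPM with α-KG and 48.9 TPM in the α-KG control, and at 50.3 TPM with 2-HG and 145.8 TPM in the 2-HG control. The α-KG library and the 2-HG control were thus high and the α-KG control and the 2-HG library low, with differences of 1.39 with α-KG, -1.52 with 2-HG and 1.56 between the controls. Sec13, which encodes the partner of SEC31 in the cage, was at 232 TPM with α-KG and 223 TPM in the α-KG control, and at 227 TPM with 2-HG and 285 TPM in the 2-HG control. Sec13 stayed under the 2-fold rule throughout, so the ratio of Sec13 to Sec31a was 1.78 with α-KG and 4.56 in the α-KG control, and 4.50 with 2-HG and 1.95 in the 2-HG control.

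Mia3, which encodes the ER exit site receptor TANGO1 that loads collagens and other bulky cargo, was high and low in the same libraries as Sec31a, with a wider gap. It was at 60.0 TPM with α-KG and 4.46 TPM in the α-KG control, and at 4.26 TPM with 2-HG and 74.1 TPM in the 2-HG control. The differences were 3.48 with α-KG, -3.84 with 2-HG and 3.78 between the controls. Set against the control of the other pair, the difference with α-KG was -0.30 for Mia3 and -0.16 for Sec31a, and for Sec31a that with 2-HG was 0.040, so the direction of these calls depends on which control is used. Mia2, whose locus encodes the related receptor cTAGE5, went the other way within the α-KG pair and stayed under the rule. It was at 14.6 TPM with α-KG and 28.7 TPM in the α-KG control, and at 23.5 TPM with 2-HG and 19.0 TPM in the 2-HG control. Mia3 therefore made up 80.4% of the summed Mia2 and Mia3 TPM with α-KG and 13.5% in the α-KG control, and 15.4% with 2-HG and 79.6% in the 2-HG control.

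A split in which the α-KG library and the 2-HG control each lay at least 2-fold above both other libraries was seen in 40 of 10420 genes (0.384%), and Mia3 and Sec31a are 2 of those 40. GENCODE M21 holds 6 transcripts of Mia3, of 259 to 2961 bases. The widest of them spans 18572 bases of a gene of 42829 bases (chromosome 1, 183326725 to 183369553 in GRCm38), so no annotated transcript covers the whole gene. Sec31a (chromosome 5, 100361649 to 100416234) has 12 transcripts of 600 to 4228 bases, and at least 1 of them spans the gene. How the deposited gene values combine transcripts is not given in the sources used here, and its part in these levels was not tested.

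Because Mia3 and Sec31a shared their high and low libraries, the 250 bases before their RefSeq start sites are shown 5′ to 3′ on the strand of the gene (GRCm38.p6, minus strand of the genome for both). Capitals mark CCGGAAG, the core that ETS factors bind, and GGGCGG, the GC box, read on either strand. For Sec31a, the start site that lies at the end of the annotated gene is used.
Mia3 (chr1:183369566-183369815): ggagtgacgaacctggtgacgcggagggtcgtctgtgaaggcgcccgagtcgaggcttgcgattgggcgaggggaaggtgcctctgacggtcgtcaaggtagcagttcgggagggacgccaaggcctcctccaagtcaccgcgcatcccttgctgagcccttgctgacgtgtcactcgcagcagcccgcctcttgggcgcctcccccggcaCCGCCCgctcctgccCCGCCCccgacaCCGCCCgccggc
Sec31a (chr5:100416235-100416484): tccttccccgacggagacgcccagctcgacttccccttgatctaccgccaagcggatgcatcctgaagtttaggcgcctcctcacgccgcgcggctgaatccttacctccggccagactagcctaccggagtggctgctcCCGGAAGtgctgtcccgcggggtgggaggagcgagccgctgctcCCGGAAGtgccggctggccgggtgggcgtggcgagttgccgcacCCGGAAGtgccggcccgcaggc
The Sec31a stretch holds CCGGAAG 3 times and no GGGCGG, and the Mia3 stretch holds GGGCGG 3 times, each on the opposite strand, and no CCGGAAG. Both stretches are rich in G and C, at 70.4% for Mia3 and 69.6% for Sec31a. The median was 60.7% for genes with at least 5 TPM, in the longer windows described next. Another RefSeq start of Sec31a is not shown (250 bases at chr5:100410024-100410273). That stretch has 38.8% G and C, 1 GGGCGG and no CCGGAAG. In windows of 250 bases before to 50 after a start site, CCGGAAG was found for 13 of the 34 members that RefSeq's table lists (38.2%) and for 23.5% of 6925 genes with a listed promoter and at least 5 TPM. The word was chosen after the letters were seen, so these shares are a description only.

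The inner COPII coat of SEC23 and SEC24, which selects cargo, kept its order of paralogues in all 4 libraries. Sec24c was the most abundant of the SEC24 genes, at 54.3 TPM with α-KG and 49.9 TPM in the α-KG control, and at 36.2 TPM with 2-HG and 56.5 TPM in the 2-HG control. Sec24b followed at 19.9 to 26.7 TPM, then Sec24a at 9.29 to 12.3 TPM, and Sec24d was lowest. Sec24d was at 6.16 TPM with α-KG and 2.28 TPM in the α-KG control, and at 3.51 TPM with 2-HG and 3.04 TPM in the 2-HG control. Its difference of 1.13 with α-KG passed the 2-fold rule, but it was 0.83 against the 2-HG control, and the 2-HG pair was under 5 TPM. Sec24d made up 6.67% of the summed SEC24 TPM with α-KG and 2.54% in the α-KG control. Sec23b lay above Sec23a in each library, by 2.10-fold with α-KG and 1.74-fold in the α-KG control, and by 2.20-fold with 2-HG and 2.64-fold in the 2-HG control. Both had their lowest value with 2-HG, at 49.8 TPM for Sec23b and 22.6 TPM for Sec23a, with differences from the 2-HG control of -0.71 and -0.44 that are under the rule.

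The SAR1 GTPases start COPII assembly, and their exchange factor at the ER is encoded by Preb. Sar1b was among the steadiest members, at 298 TPM with α-KG and 282 TPM in the α-KG control, and at 321 TPM with 2-HG and 330 TPM in the 2-HG control. Sar1a was at 77.9 and 98.4 TPM in the library with α-KG and its control, and at 109 and 68.3 TPM in the 2-HG library and its control. Sar1b thus lay 2.87-fold to 4.83-fold above Sar1a in the 4 libraries. Preb was at 18.7 TPM with α-KG and 15.5 TPM in the α-KG control, and at 21.8 TPM with 2-HG and 34.0 TPM in the 2-HG control. Preb was high in the 2-HG control, with a difference of 1.09 between the controls and none past the rule with either compound. It overlaps the opposite-strand gene Abhd1, at no more than 2.14 TPM in any library, over 1575 exonic bases.

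Sec16a and Tfg organise the sites where COPII vesicles form. Sec16a was at 20.2 TPM with α-KG and 12.5 TPM in the α-KG control, and at 9.11 TPM with 2-HG and 17.8 TPM in the 2-HG control. Its libraries stood in the same high and low pairs as those of Mia3 and Sec31a, at differences of 0.65 with α-KG and -0.90 with 2-HG that are under the rule. Tfg was at 142 to 196 TPM and highest in the 2-HG control. Over the COPII coat, 11 of 12 measured genes were below 0 with 2-HG, at a median of -0.39, where 62.4% of all genes were below 0 and their median was -0.12. Against the α-KG control, 6 of the 12 were below 0 and the median was -0.09. Under median-of-ratios scaling, which moved the median of all genes with 2-HG to -0.01, that of the COPII coat was -0.27, with 9 of 12 below 0.

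**Figure D3:**
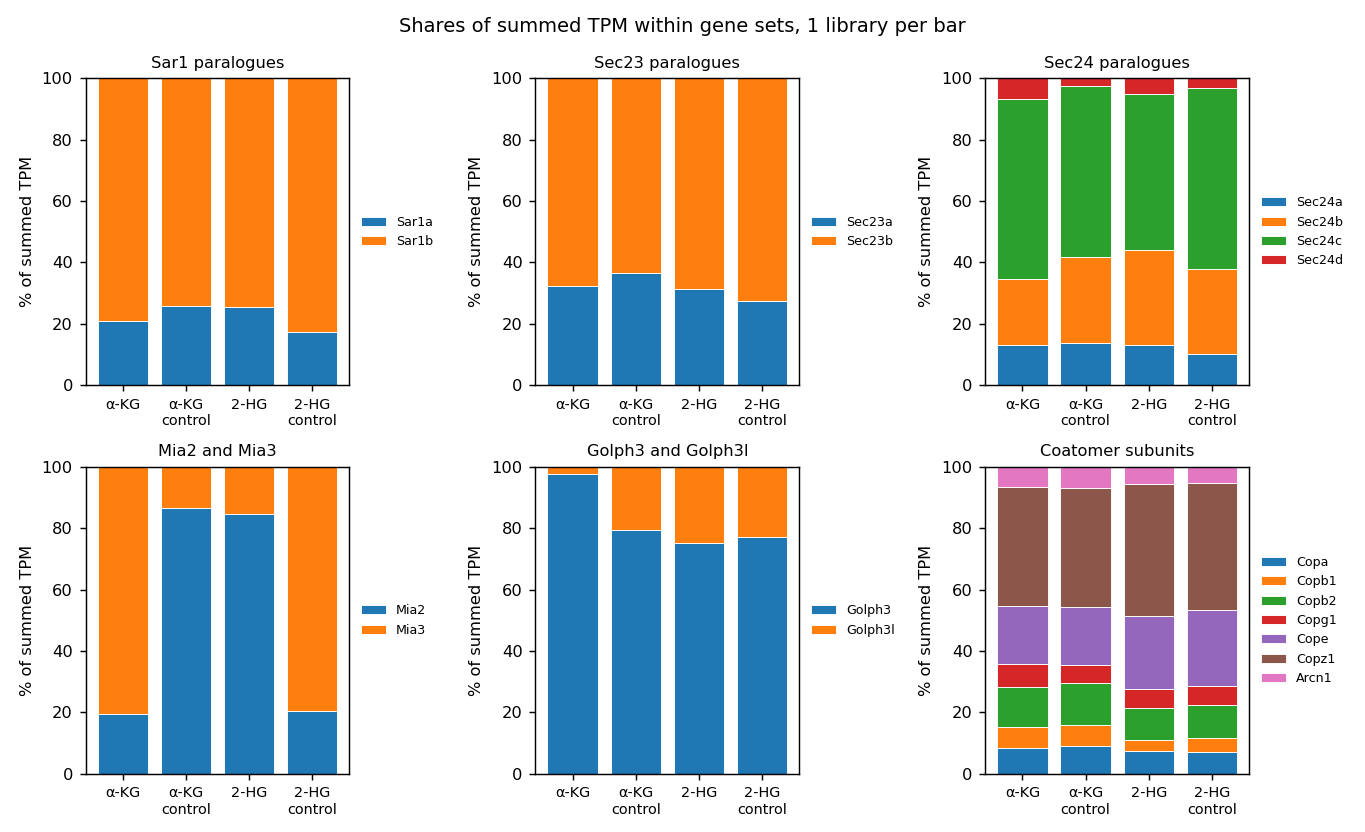
Percent of the summed TPM that each gene takes within 5 paralogue sets and within the coatomer, 1 library per bar. Shares within the SAR1, SEC23, SEC24 and coatomer sets are similar across the libraries, the larger share of the Mia2 and Mia3 pair changes between libraries, and Golph3l shrinks to 2.37% of its pair with α-KG.

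Cargo receptors of the p24 family shuttle between ER and Golgi. The p24 members, with Lman1 and Sec22b, spanned 0.36 to 0.64 on the log2 scale over the 4 libraries. The median span of all genes that averaged at least 20 TPM was 0.49. Other p24 genes could vary more, as Tmed3, which is not a member, spanned 1.44. Tmed10 was the most abundant member, at 792 TPM with α-KG and 695 TPM in the α-KG control, and at 933 TPM with 2-HG and 839 TPM in the 2-HG control. Its annotated processed pseudogene, Tmed10-ps, was listed at 76.5 to 98.0 TPM, so reads shared between these copies make both values uncertain. Tmed2 was at 110 to 149 TPM and Tmed9 at 51.4 to 80.6 TPM, both highest in the 2-HG control. Lman1, the lectin receptor ERGIC-53, was at 55.3 to 71.4 TPM, and the SNARE gene Sec22b at 66.6 to 92.7 TPM. None of these 5 members passed the rule in any comparison.

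The COPI coat had the smallest median span of the larger groups, and no member of it passed the rule in any comparison. Over all genes, 7.31% passed with α-KG, 8.01% with 2-HG and 8.86% between the controls, so 0 of 8 is near the share of all genes. Of the 8 genes with a value, the spans over the 4 libraries were 0.16 to 0.83 on the log2 scale, with a median of 0.32. Copa, which encodes α-COP, was at 72.4 TPM with α-KG and 80.8 TPM in the α-KG control, and at 72.5 TPM with 2-HG and 72.2 TPM in the 2-HG control. Copa shares 195 exonic bases with Ncstn on the opposite strand, at 10.8 to 18.6 TPM. The labels do not say whether the counting used strand, so the value of Copa is uncertain. Arcn1, which encodes δ-COP, was at 57.0 and 61.0 TPM in the library with α-KG and its control, and at 54.3 and 55.3 TPM in the 2-HG library and its control. The widest span was that of Copb1, which encodes β-COP, at 57.7 TPM with α-KG and 58.3 TPM in the α-KG control, and at 32.4 TPM with 2-HG and 48.8 TPM in the 2-HG control.

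The subunits of the coatomer, a complex with 1 copy of each subunit, were not equally abundant as RNA. Copz1 (ζ-COP) was the highest in each library, at 334 to 430 TPM and 38.7% to 42.9% of the summed coatomer TPM. Cope (ε-COP) came next at 163 to 259 TPM and Copb2 (β′-COP) ranked after it at 102 to 122 TPM. Copa, Copg1, Arcn1 and Copb1 lay between 32.4 and 80.8 TPM, and the order of the last 3 changed between libraries. Cope was at 163 TPM with α-KG and 165 TPM in the α-KG control, and at 231 TPM with 2-HG and 259 TPM in the 2-HG control, so its larger difference was between the controls, at 0.64. Of the alternative subunits, Copg2 (γ2-COP) was at 15.2 to 17.1 TPM, against 53.3 to 64.6 TPM for Copg1. Copz2 (ζ2-COP) was at 1.54 to 6.57 TPM.

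ARF GTPases recruit the coatomer, and the 2 listed here differed most in their record. Arf1 was at 456 TPM with α-KG and 457 TPM in the α-KG control, and at 452 TPM with 2-HG and 617 TPM in the 2-HG control. Only the 2-HG control stood above the other 3 libraries, by a difference of 0.43 over the α-KG control. Arf4 was listed at 0 in all 4 libraries (chromosome 14, 26638074 to 26665084). Pde12, which shares 527 exonic bases with it on the opposite strand, was also listed at 0 in all 4, while Slmap in the same stretch of the chromosome was at 82.1 TPM with α-KG and 76.1 TPM in the α-KG control, and at 82.6 TPM with 2-HG and 56.4 TPM in the 2-HG control. A listed 0 in such a table can be a failed estimate, so no statement on the expression of Arf4 is made.

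**Figure D4:**
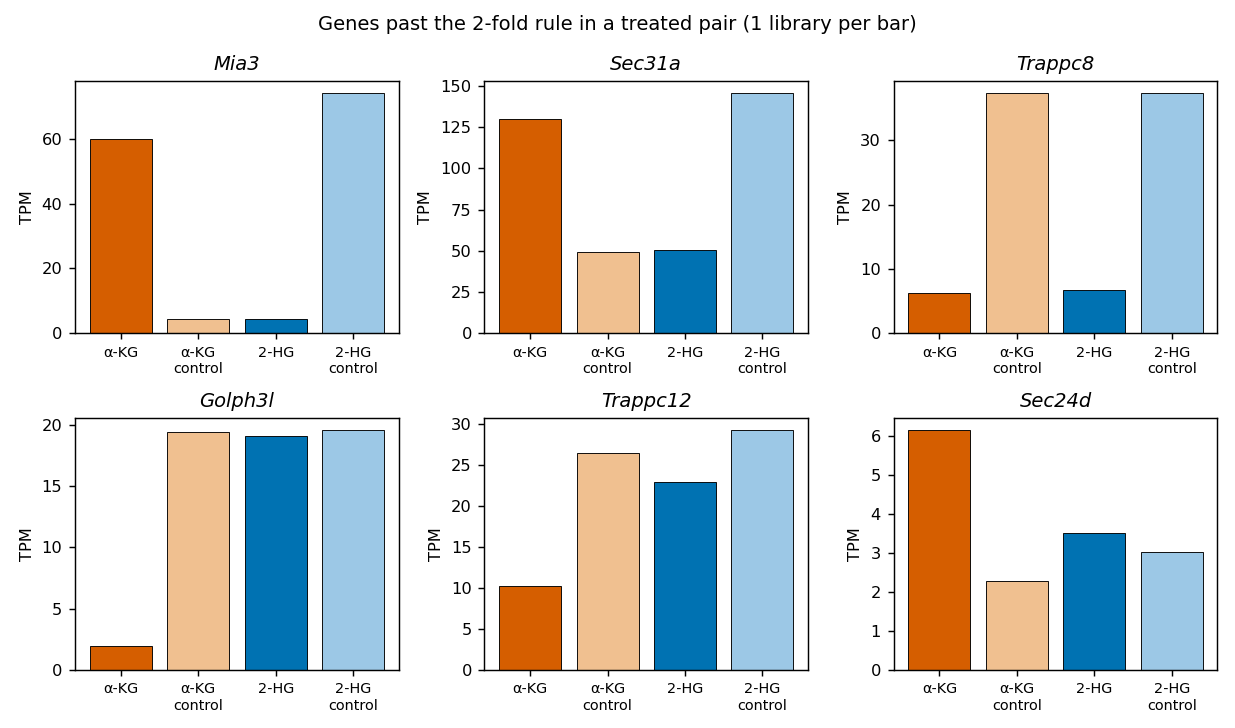
Level (TPM) of the 6 genes past the 2-fold rule in a treated pair, 1 library per bar. Mia3 and Sec31a are high with α-KG and in the 2-HG control, Trappc8 is high in the controls, and Golph3l and Trappc12 are low with α-KG.

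Of the TRAPP genes, Trappc8 was lower with either compound. It encodes a subunit of the TRAPPIII complex, which activates Rab1 and takes part in autophagy as well as in ER to Golgi transport. Trappc8 (chromosome 18, 20817223 to 20896093) was at 6.20 TPM with α-KG and 37.4 TPM in the α-KG control, and at 6.71 TPM with 2-HG and 37.3 TPM in the 2-HG control. Both treated libraries were low and both controls high, at almost equal levels, with differences of -2.41 with α-KG and -2.31 with 2-HG. The difference was -2.41 for α-KG and -2.31 for 2-HG against the control of the other pair as well. Over all 10420 genes, 33 (0.317%) had both controls at least 2-fold above both treated libraries, and Trappc8 was the member among them. Trappc8 has 5 annotated transcripts of 336 to 5194 bases and no gene that overlaps its exons.

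Other TRAPPIII subunits showed smaller differences than Trappc8 in each treated pair. Trappc12 was at 10.2 TPM with α-KG and 26.4 TPM in the α-KG control, and at 23.0 TPM with 2-HG and 29.3 TPM in the 2-HG control. Both treated libraries lay below both controls, as for Trappc8, but only the difference of -1.30 with α-KG passed the rule, and that with 2-HG was -0.34. Trappc11 was at 31.6 TPM with α-KG and 33.8 TPM in the α-KG control, and at 28.2 TPM with 2-HG and 15.7 TPM in the 2-HG control. Here the 2-HG control was low, at -1.06 from the α-KG control, and the 2-HG library lay above it by 0.81, under the rule. Trappc13, another subunit of this complex, was at 58.1 TPM with α-KG and 45.4 TPM in the α-KG control, and at 49.3 TPM with 2-HG and 74.6 TPM in the 2-HG control.

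The core subunits shared by the TRAPP complexes spanned a wide range of levels. Trappc1 was at 325 to 386 TPM and varied little. Trappc3 was at 76.5 TPM with α-KG and 101 TPM in the α-KG control, and at 117.5 TPM with 2-HG and 139 TPM in the 2-HG control. Trappc5 was at 28.8 to 37.9 TPM and Trappc2 at 11.6 to 24.01 TPM, and Trappc10, a subunit of TRAPPII, was lowest at 5.94 to 7.41 TPM. Trappc4 was at 63.2 TPM with α-KG and 82.2 TPM in the α-KG control, and at 143 TPM with 2-HG and 88.6 TPM in the 2-HG control, with none of its differences past the rule. It shares 462 exonic bases with Rps25 on the opposite strand, at 317 to 560.5 TPM, and the labels do not say whether the counting used strand, so its value is uncertain. The same holds for Trappc2, which shares 131 exonic bases with Ofd1 on the opposite strand, at 9.67 to 21.2 TPM. Over the 9 TRAPP members, 8 were below 0 with α-KG, at a median of -0.37. Of all genes, 44.2% were below 0 and their median was 0.05. Against the 2-HG control, 7 of the 9 were below 0 at a median of -0.48, where 53.1% of all genes were below 0 at a median of -0.04. The 5 other TRAPP subunits, Trappc13 among them, differed from this with α-KG, with 3 above 0 and 2 below, at a median of 0.29. With 2-HG, 5 of the 9 members were above 0 and the median was 0.03, where 37.6% of all genes were above 0.

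GOLPH3 proteins bind phosphatidylinositol 4-phosphate on Golgi membranes and take part in sorting Golgi enzymes. Golph3l was at 1.92 TPM with α-KG and 19.4 TPM in the α-KG control, and at 19.1 TPM with 2-HG and 19.6 TPM in the 2-HG control. The α-KG library alone was low, at a difference of -2.80, and the other 3 libraries lay close together. Golph3 was at 79.2 TPM with α-KG and 75.1 TPM in the α-KG control, and at 58.5 TPM with 2-HG and 66.7 TPM in the 2-HG control. Golph3l thus made up 2.37% of the summed TPM of the pair with α-KG and 20.5% in the α-KG control, and 24.6% with 2-HG and 22.7% in the 2-HG control. A low value in the α-KG library alone, at least 2-fold under each other library, was seen in 92 of 10420 genes (0.883%), and Golph3l and Trappc12 are among them. The clone gene RP23-422N18.3, which shares 164 exonic bases with Golph3l on the same strand (chromosome 3, 95588934 to 95619247), was listed at 1.25 TPM with α-KG and 0.70 TPM in its control, and adding its TPM to that of Golph3l left the call in place.

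Among 72 other genes of the pathway, 66 were measured in each comparison and few passed the rule. With α-KG, 1 of 66 was lower, against 3.1% of all genes. It was Tmed3, of the p24 family, at 4.65 TPM, which is under the 5 TPM minimum, and 10.7 TPM in the α-KG control. With 2-HG, 3 of 66 (4.55%) were lower, against 5.65% of all genes, and none was higher. They were Gbf1, the ARF1 exchange factor, at 7.35 TPM and 18.7 TPM in the 2-HG control, Arf2 at 21.9 TPM and 49.3 TPM, and the ER SNARE gene Stx18 at 18.1 TPM and 49.6 TPM. Stx18, Rab1b and Copz2, 4.55% of 66, were at least 2-fold higher in the 2-HG control when set against the α-KG control, where 5.99% of all genes were. These shares are below those of all genes. Rab1b, the GTPase that TRAPP activates, was at 193 TPM in the 2-HG control and 86.1 TPM in the α-KG control. All 8 subunits of the COG complex, a Golgi tether, stayed under the rule in all 3 comparisons. That is near the share of all genes past it, 7.31% with α-KG, 8.01% with 2-HG and 8.86% between the controls.

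ER folding genes, summed, were highest in the 2-HG control. There 18 of 39 members (46.2%) and 32.3% of all genes also had their highest value. The 24 listed genes of ER folding and the unfolded protein response summed to 2783 TPM with α-KG and 2447 TPM in the α-KG control, and to 2494 TPM with 2-HG and 3264 TPM in the 2-HG control. Between the controls, 17 of 22 measured genes were above 0, at a median of 0.31, where 58.3% of all genes were above 0 at a median of 0.09. With 2-HG, 17 of 22 were below 0, at a median of -0.35, where 62.4% of all genes were below 0 at a median of -0.12. Against the α-KG control the median of the folding genes with 2-HG was -0.00. Hspa5, which encodes the ER chaperone BiP, was at 259 TPM with α-KG and 245 TPM in the α-KG control, and at 240 TPM with 2-HG and 565 TPM in the 2-HG control. Of the listed genes it gave the largest part of the sum in the 2-HG control. Hsp90b1, another ER chaperone gene, had 547 TPM with α-KG and 479 TPM in its control, and 373 TPM with 2-HG and 462 TPM in its control. The stress-induced genes Herpud1 and Ddit3 had another pattern and were highest with 2-HG. Herpud1 was at 14.0 TPM with α-KG and 5.95 TPM in its control, a difference of 1.11, and at 42.2 TPM with 2-HG and 38.7 TPM in the 2-HG control. Ddit3 was at 82.8 TPM with α-KG and 51.0 TPM in its control, and at 228 TPM with 2-HG and 172 TPM in the 2-HG control. Between the controls both passed the rule, at 2.51 for Herpud1 and 1.73 for Ddit3. The part of the folding genes in the COPII levels was not tested.

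The promoters were searched for words that unfolded protein response factors are known to bind, read on both strands. Neither the ER stress element ERSE nor its second form, ERSE-II, was found in the windows of the 34 members. They were found for 0.137% and 0.0444% of all genes with a listed promoter, and for 0.22% and 0.12% of those with at least 5 TPM. For words this rare, 34 members are too few for an absence to be read. TGACGTGG, a core that XBP1 and related factors bind, was found for 5 of the 34 members (14.7%), against 1.08% of the 6925 genes with at least 5 TPM and 0.714% of all 27025 genes with a listed promoter. TGACGTCA, the cyclic AMP response element, which shares its first letters with that core, was found for 2 members (5.88%, against 4.10% of the genes with at least 5 TPM). The other words searched, 10 in all, were GGGCGG (70.6% of members and 70.5% of those genes), CACGTG (11.8% and 12.4%), AAGATGGC (11.8% and 6.27%), the NRF1 word (20.6% and 13.3%) and the CLEAR element, found for no member and for 0.968% of those genes. The words were chosen after the members were known and the letters of their promoters were seen. The shares are thus a description only. The matches are shown in windows of 30 bases on the strand of the gene, with the word in capitals (GRCm38.p6).
Sec23a (chr12:59011993-59012022): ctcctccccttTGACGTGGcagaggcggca
Sec24d (chr3:123267459-123267488): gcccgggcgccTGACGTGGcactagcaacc
Arf1 (chr11:59228228-59228257): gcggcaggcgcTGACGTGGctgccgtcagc
Copb1 (chr7:114254690-114254719): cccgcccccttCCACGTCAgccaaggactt
Copb2 (chr9:98563713-98563742): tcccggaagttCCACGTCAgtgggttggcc
The word began 26 bases before the RefSeq start of Sec24d, 28 before that of Copb1 and 7 before that of Copb2, and at base 7 after that of Sec23a. In GENCODE M21, Sec24d, Copb1 and Copb2 start at 123267455, 114254711 and 98563721, so by that annotation the word lies inside each of these genes. For Arf1, with several RefSeq starts, it lay 84 bases before one and at base 22 after another. In Copb1 and Copb2 it lies on the opposite strand, and in Copb2 the word ccggaag stands just before it. With 2-HG, the differences of Sec23a, Arf1, Copb1 and Copb2 were -0.44, -0.45, -0.58 and -0.14, none past the rule, and Sec24d was under 5 TPM in that pair. Of all genes, 62.4% were below 0 there and their median was -0.12. Against the α-KG control, the same differences were -0.77, -0.02, -0.83 and -0.25. The part of the word in these levels was not tested. With α-KG, the differences of those 4 lay between -0.09 and 0.01, and that of Sec24d was 1.13, the one of the 5 past the rule.

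A pair of COPII genes share 1 promoter region. Sar1b, on the plus strand of chromosome 11, and Sec24a, on its minus strand, have annotated starts 53 bases apart (51763687 and 51763634) and run in opposite directions. Their levels were far apart, with Sar1b 24.6-fold above Sec24a with α-KG and 23.0-fold in the α-KG control, and 34.6-fold with 2-HG and 34.5-fold in the 2-HG control. Neither passed the rule in any comparison.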

How the data were processed

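Per the file headers and names, the authors deposited TPM (length-scaled abundances that share a common total) for 53715 genes in 4 libraries. The columns sum to 999891 to 999935, no read counts were used, and the depth is unknown, so no counting interval can be given. The builds mm10 and GRCm38.p6 and the tools HISAT2, StringTie, DESeq2, Trimmomatic and Picard are listed, per the submitters' processing notes, with no versions, roles or order. Strand use and the authors' annotation are not given in the sources used here. A worksheet of selected genes, with 10 columns of per-library values, was not used here. Gene identifiers were matched to GENCODE M21 (GRCm38) for 53620 genes, and 95.8% matched with their version.

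Differences of log2(TPM + 1) were computed in Python 3.11.15 with pandas 2.3.3 where at least 1 of the libraries compared reached 5 TPM, with a 2-fold rule. The pseudocount of 1 shrinks the differences of low genes. With 1 library per group no test was run, and the share of all genes past the same rule is given for each comparison. The procedure was tested on simulated data. Alternatives were pseudocounts of 0.1 and 5, no TPM minimum or 10 TPM, median-of-ratios scaling, a 4-fold rule, other controls, and adding TPM of same-strand overlapping genes. Promoter sequences are RefSeq's (GRCm38.p6), and 34 of 40 members had an entry.

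All 40 members were reported by role. Members past the rule, those spanning at least 2-fold and their paralogues were described singly, and other pathway genes were named where they passed the rule, apart from an item that is not reported here. Trappc13, Hsp90b1, Slmap and the promoter words were added after their values or letters were seen. Members, lists and rules were chosen with earlier results of these data known.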

Additional observations from a re-analysis of the deposited data

How the results depend on the processing

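With 1 library per group, the choice of control was the main limit. With α-KG, the count of at least 2-fold higher members was 3 against its own control, 0 against the 2-HG control and 1 against the mean of both controls, while the count of lower members was 3 in each. The difference with α-KG changed sign against the 2-HG control for Mia3, to -0.30, and for Sec31a, to -0.16. With 2-HG, 3 members were lower against its own control and 1 against the α-KG control, where Sec31a changed sign to 0.040 and Mia3 was under 5 TPM in both libraries. Under a 4-fold rule, 1 member was higher with α-KG, between the controls 1 was higher and 0 were lower, and with a pseudocount of 5, 0 were lower between the controls, since Trappc11 came to -0.91. That pseudocount also took Sec24d with α-KG, at 0.62, and Preb between the controls, at 0.93, under the rule. All 13 calls were kept with a pseudocount of 0.1, with no minimum, under median-of-ratios scaling and with the locus sum, and all 12 that could be measured were kept with a minimum of 10 TPM. Against the control of the other pair, 4 of 8 measurable calls were kept, and against the mean of both controls 6 of 9, without both calls of Sec31a and that of Sec24d. The cause of these shifts was not tested. No paired analysis was possible because each group holds 1 library.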
